A study of Mus musculus with 15 samples.

Results

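The genes described here encode voltage-gated and potassium ion channels. They are the 107 genes whose symbols mark the pore and auxiliary subunits of potassium channels (Kcn symbols other than Kcne2 and Kcnq1), voltage-gated calcium channels (Cacna, Cacnb and Cacng) and voltage-gated sodium channels (Scn), and that had 10 or more counts in at least 3 libraries. They were drawn from 130 matching symbols among 36144 gene entries, and all 107 were among the 16224 genes tested. Of the 23 matching symbols below the minimum, Kcna10, Kcnk15, Kcnmb3 and Scn10a had no count in any library. Kcng3, Kcnh5, Kcnj12, Kcnj9 and Scn4a lay just inside the minimum, each with a third-highest count of 11, and Kcnj5 lay just outside it with 8, followed by Kcna1, Kcnk9 and Kcns2 with 7.

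Voltage-gated sodium and calcium channels open on depolarization and drive action potentials, calcium entry and secretion, whereas most potassium channels bring the membrane back towards rest. Each pore subunit works with auxiliary subunits that set its gating and its traffic to the membrane. In the stomach wall these genes serve smooth muscle, enteric neurons, the interstitial cells that pace the muscle and hormone-secreting endocrine cells, and in the gastric glands inward rectifier, tandem-pore and KCNQ-type channels recycle potassium during acid secretion. Bulk RNA holds all of these cells at once, so that fewer cells of a type and less RNA per cell cannot be told apart.

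Total RNA of mouse stomach was read by bulk sequencing in 15 samples, with 3 samples each of tumors of the antrum, tumors of the greater curvature of the cardia, tumors of the lesser curvature of the cardia and tumors of the corpus, and 3 samples of normal stomach tissue. All samples, normal tissue included, carry the same genotype and treatment in the labels: C57BL/6 mice with Pou2f3-CreERT, Rb1fl/fl, Trp53fl/fl and LSL-MycT58A, aged 7 to 8 weeks, given tamoxifen intraperitoneally at 50 mg/kg and sampled 5 weeks after induction. The Cre is driven by Pou2f3, a regulator of tuft cells, so that the alleles are switched in cells that express it. The labels name no stomach region for the normal tissue and leave out whether each sample is a different animal. The replicates are labelled biological, so a p-value here covers no more than the spread among these 15 samples.

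Library totals ran from 7957165 counts (lesser curvature 2) to 21564972 (greater curvature 2), and 1 count stood for 0.0477 to 0.112 CPM, the count scaled to a library size adjusted by trimmed mean of M-values (TMM). Myc had 95.2 to 765 CPM in the tumors and 39.1 to 98.4 CPM in the normals, with a log2 fold change of 2.13 (SE 0.56, edgeR adjusted p = 0.0158). Rb1 (adjusted p = 0.372), Trp53 (adjusted p = 0.377) and Pou2f3 (adjusted p = 0.273) were not called, and gene totals include exons outside the floxed segments, so they do not test recombination. Greater curvature 2 and corpus 1 lay among the normals on the first principal component of all genes, which held 46.9% of the variance. Because those libraries stand apart from the other 10 tumors, counts of called genes are also given without them. They were picked for their likeness to the normals in these same data. Leaving them out therefore favors calls against normal, so values without them describe the other 10 tumors and add no support. Of the 107 channel genes, 49 had 10 or more counts in all 15 libraries, and 15 reached that count in no normal but in at least 3 tumors. The list took in those 15 genes through the tumors alone, which favors genes that are high there, and 4 of the genes called higher, Kcnh4, Kcnj6, Kcnj9 and Kcnj14, are among them.

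In all tumors against normal, 12 of the 107 channel genes (11.2%) rose and 17 (15.9%) fell at an adjusted p under 0.05 (edgeR quasi-likelihood test, Benjamini-Hochberg over all genes), against 16.2% of all genes tested that rose and 15.7% that fell. The share that fell was close to the background and the share that rose lay below it. The median log2 fold change was 0.12 over the channel genes and -0.04 over all genes tested. The genes that rose included Kcnq5 of the KCNQ family, Kcnh4, Kcnh6 and Kcnh7 of the ether-a-go-go family, the inward rectifiers Kcnj3, Kcnj6, Kcnj9 and Kcnj14, and Kcnd1, Scn8a and Cacng4. The genes that fell included Kcnmb1 and Kcnd3, the sodium channel genes Scn7a, Scn2b and Scn4b, the modifier subunits Kcnf1 and Kcns3, and the inward rectifiers Kcnj8, Kcnj11, Kcnj12 and Kcnj13. None of the 8 calcium channel pore genes, the 4 alpha2delta genes or the 10 auxiliary potassium channel genes was called. Values of all 12 tumors lay above those of all 3 normals for 2 channel genes, Kcnj14 and Kcnq5 (1.87%, against 9.58% of all genes tested). They lay below them for 6, Scn4b, Kcnf1, Scn7a, Kcnmb1, Kcnd3 and Kcnt2 (5.61%, against 6.65%). Without greater curvature 2 and corpus 1 the remaining 10 tumors lay above all normals for 14 channel genes (13.1%, against 17.6% of all genes) and below them for 12 (11.2%, against 14.4%). Both counts of calls depended on single libraries: between 1 gene (without normal 2) and 18 genes (without greater curvature 2) rose when a library was left out, and between 9 (without normal 3) and 26 (without greater curvature 2) fell. The share of all genes called in those fits is not given here, so these ranges do not set channel genes apart from other genes. Without greater curvature 2 and corpus 1 together, 19 genes rose and 24 fell, against 21.7% and 22% of all genes in the same fit, and these included all 12 that rose and 16 of the 17 that fell with all libraries. Under other settings with all libraries, limma on TPM under both pseudocounts lost, among others, Kcnd3, Cacnb3, Kcns3, Kcnj8 and Kcnj11, limma on log2(TPM + 1) alone also lost Kcnh4 and Kcnh7, a fit with no filter on low counts lost, among others, Kcnd1, Kcnh4, Kcnh6, Kcnj3, Kcnj9, Kcnk7 and Scn8a, and DESeq2 lost Kcnj9.

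**Figure D1:**
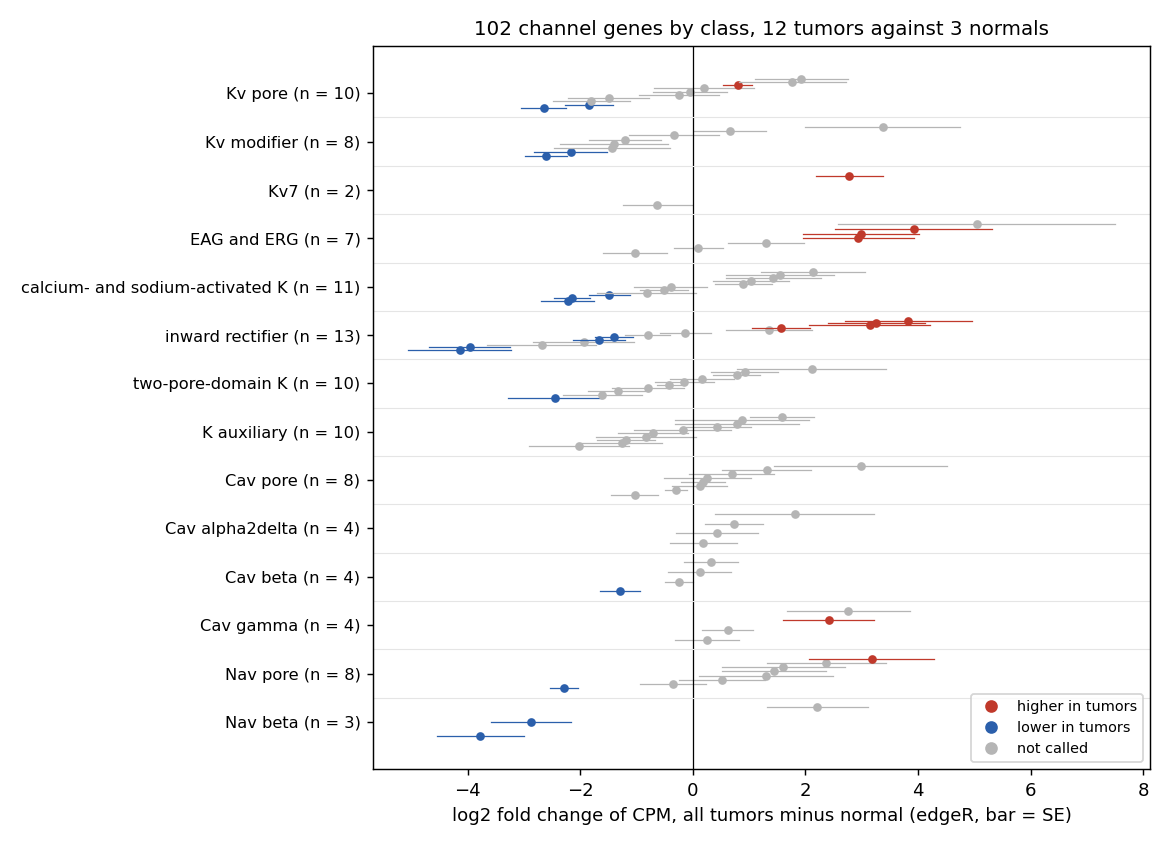
Log2 fold change of CPM, all 12 tumors minus the 3 normals (x axis, edgeR, bars give the SE), for 102 of the 107 channel genes, grouped by class (y axis) and colored by whether the gene rose, fell or was not called at an adjusted p under 0.05. EAG and ERG genes lie mostly right of 0 with 3 called higher, and the inward rectifiers hold 4 calls in each direction. Of all genes tested, 16.2% were called higher and 15.7% lower.

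**Figure D2:**
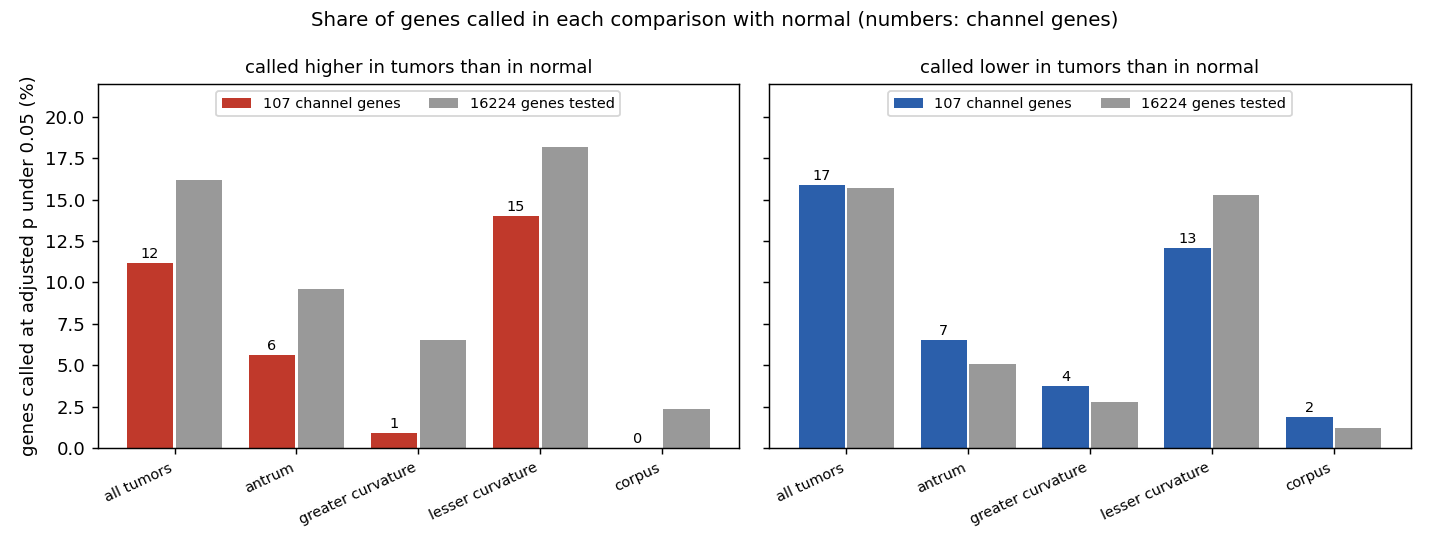
Share of genes called higher (left) and lower (right) in tumors than in normal tissue (y axis, percent), for the 107 channel genes and for all 16224 genes tested, in all tumors and at each site (x axis). Numbers on the bars count the channel genes called, and the 12 that rose make up 11.2% against 16.2% of all genes.

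The RefSeq promoters of Kcnq5, which rose, and Kcnmb1, which fell, each called under every setting tried, are shown with that of Kcnh4, which was chosen after its values were seen because it alone among the genes that rose held CACGTG, the E-box core that Myc and other factors can bind. Each is the 250 bases before the RefSeq start (GRCm38.p6), read 5′ to 3′ on the strand of the gene, in lower case with CACGTG in capitals: Kcnq5 at chr1:21961943-21962192 (minus strand), Kcnmb1 at chr11:33962763-33963012 (plus strand) and Kcnh4 at chr11:100759779-100760028 (minus strand).
Kcnq5: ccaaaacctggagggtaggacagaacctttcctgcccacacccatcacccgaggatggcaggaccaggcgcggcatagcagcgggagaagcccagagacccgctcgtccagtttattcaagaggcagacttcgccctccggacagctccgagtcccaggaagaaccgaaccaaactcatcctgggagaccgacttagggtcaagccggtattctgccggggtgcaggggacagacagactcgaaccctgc
Kcnmb1: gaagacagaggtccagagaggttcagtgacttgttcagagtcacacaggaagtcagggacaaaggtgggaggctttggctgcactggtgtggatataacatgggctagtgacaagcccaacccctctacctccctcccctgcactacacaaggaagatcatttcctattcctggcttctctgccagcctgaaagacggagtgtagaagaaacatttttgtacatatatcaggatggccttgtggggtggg
Kcnh4: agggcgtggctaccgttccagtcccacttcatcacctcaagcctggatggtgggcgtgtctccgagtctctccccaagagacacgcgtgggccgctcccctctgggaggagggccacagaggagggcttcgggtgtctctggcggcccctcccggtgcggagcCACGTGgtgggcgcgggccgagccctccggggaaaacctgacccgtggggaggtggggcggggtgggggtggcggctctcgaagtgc
The CACGTG of Kcnh4 begins 87 bases before the RefSeq start. That start lies 164 bases from the GENCODE gene start, and no GENCODE transcript of the gene begins there. For Kcnq5 the promoter at the GENCODE gene start is shown, and another RefSeq start lies 708 bases away, with no match to either motif searched. In windows that also took in the bases just after the start, 78 of the 107 channel genes had a promoter in RefSeq. CACGTG, which reads the same on both strands, was in 6 of these 78 (7.69%) and in 8.09% of all 27025 genes with a promoter. It was in 1 of the 8 genes that rose and 0 of the 15 that fell. The CArG box, the element of serum response factor in muscle genes (CC, then 6 bases that are each A or T, then GG, which also reads the same on both strands), was in 0 of the 78 and in 1.81% of all genes. A match describes letters and not a bound site.

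The KCNQ channels carry the M-current, a slow potassium current that holds neurons below firing threshold. Kcnq5 (chromosome 1, 21398403 to 21961942, GRCm38) had 27.3, 10.3 and 13.9 CPM in antrum tumors, 18.8, 5.04 and 24.9 CPM in greater curvature tumors, 32.8, 18.2 and 25.5 CPM in lesser curvature tumors, 5.14, 14.4 and 20.5 CPM in corpus tumors, and 3.75, 1.57 and 2.29 CPM in normals. All 12 tumors lay above all 3 normals, with greater curvature 2 and corpus 1 nearest to them. Its log2 fold change was 2.78 (SE 0.60, adjusted p = 0.00716), and it was called under every setting tried. Kcnq3, another M-channel gene, had a log2 fold change of -0.63 and was not called (adjusted p = 0.419).

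Of the 7 genes of the ether-a-go-go (EAG), ERG and ELK group, 3 rose and none fell, against 16.2% and 15.7% of all genes tested. Kcnh6, an ERG-type channel gene, ranged from 0.611 to 56.4 CPM with a median of 16.9 CPM in tumors and stood at 1.62, 1.05 and 3.44 CPM in normals. Kcnh7, another ERG-type gene, ranged from 0.611 to 13.3 CPM with a median of 5.75 CPM in tumors and stood at 1.40, 0.262 and 0.612 CPM in normals. For each, 10 of 12 tumors lay above all normals. Their log2 fold changes were 2.98 (SE 1.03, adjusted p = 0.0446) for Kcnh6 and 2.94 (SE 0.99, adjusted p = 0.0407) for Kcnh7. The ELK-type gene Kcnh4 was scarce, with 325 counts over the 12 tumors and 3 counts over the 3 normals, a ratio of 20.3 after scaling (95% counting interval 6.88 to 98.8), and an adjusted p of 0.0494. Kcnh5 had 61 counts over the tumors and none over the normals, at least 3.81-fold higher against a floor of 3 counts over the normals, and was not called (adjusted p = 0.134). Kcnh2, the ERG gene that repolarizes the heart, was not called. It had 6.56 to 31.8 CPM in tumors and 8.74, 13.2 and 12.2 CPM in normals, and a log2 fold change of 0.10 (SE 0.43, adjusted p = 0.865). The class median was 2.94, or 1.93 with Kcnh5 at its bound, a value that is the bound of Kcnh5 itself. Kcnh4 and Kcnh5 met the count minimum through tumors alone, which favors a positive median, so it does not measure a rise of the class.

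These calls were thin. Kcnh4 was called without greater curvature 2, greater curvature 3 or corpus 1, and lost its call without any of the other 12 libraries (adjusted p = 0.0519 to 0.151). Kcnh6 kept its call without antrum 3, greater curvature 2, lesser curvature 2 or corpus 1 and lost it without each of the other 11 (adjusted p = 0.0537 to 0.15). Kcnh7 kept its call without any antrum tumor, greater curvature 2, lesser curvature 2 or corpus 1 and lost it without each of the other 9 (adjusted p = 0.0537 to 0.141). Without greater curvature 2 and corpus 1 together, a choice that favors calls, the adjusted p was 0.00938 for Kcnh4, 0.00633 for Kcnh6 and 0.00554 for Kcnh7.

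**Figure D3:**
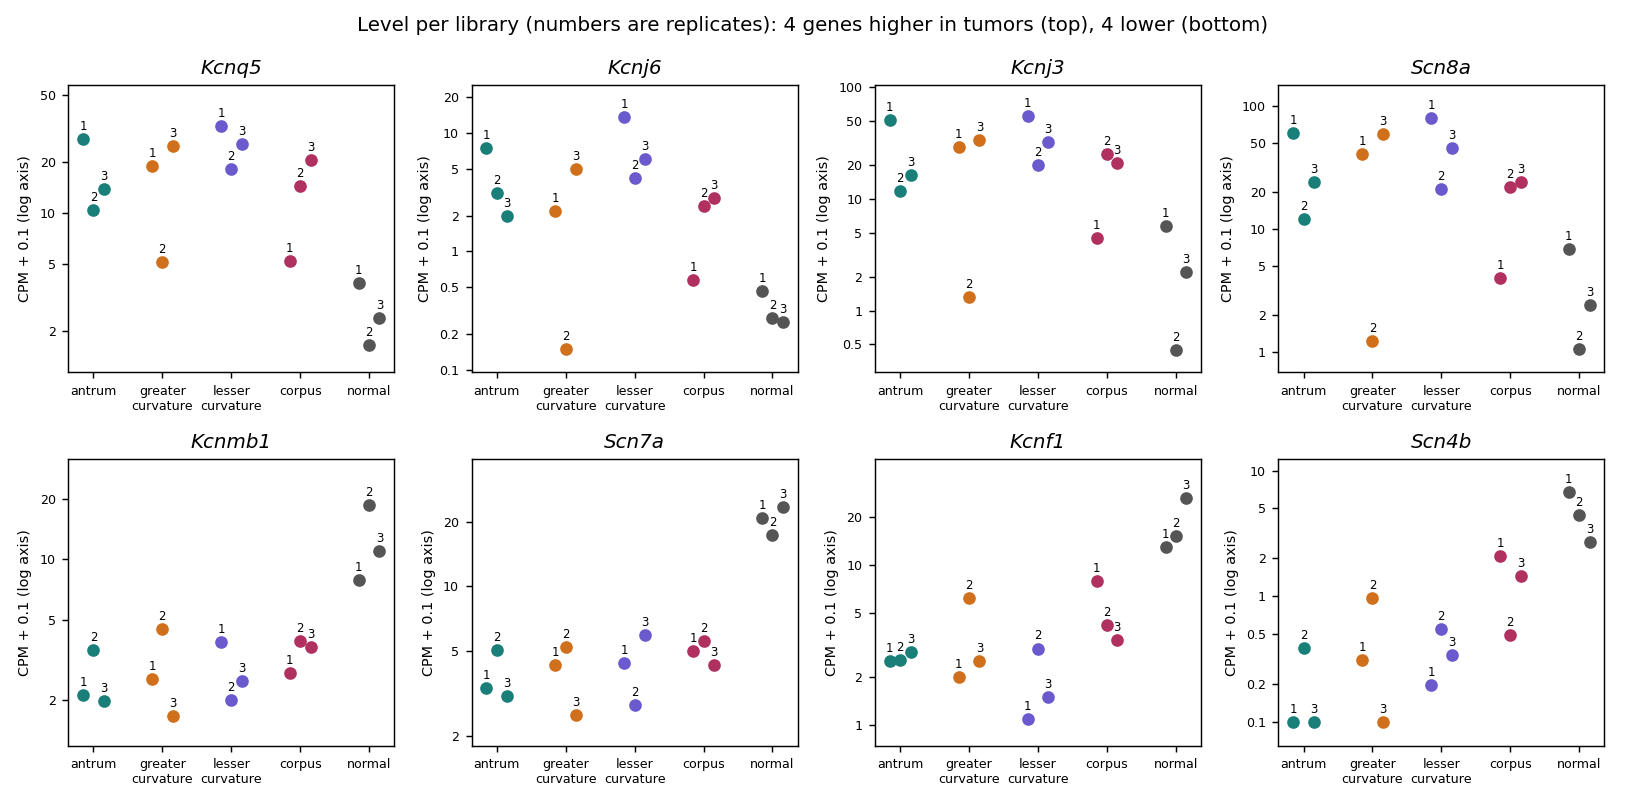
Level of 8 channel genes in each of the 15 libraries (y axis, CPM + 0.1 on a log axis, with numbers giving the replicate), by tumor site and normal tissue (x axis). In the upper row, of genes that rose, greater curvature 2 and corpus 1 sit lowest among the tumors, and in the lower row, of genes that fell, all 12 tumors sit below the 3 normals.

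The inward rectifiers are potassium channels that pass current most easily into the cell. They held 4 of the 12 rises and 4 of the 17 falls among 13 genes, against 16.2% and 15.7% of all genes tested. Kcnj3, Kcnj6 and Kcnj9 encode G-protein-gated channel subunits that slow excitable cells on receptor signals. Each was called higher, but Kcnj6 and Kcnj9, like Kcnj14, had 10 or more counts in no normal and met the minimum through tumors alone, and Kcnj5, of the same family, was below it. Kcnj6 ranged from 0.051 to 13.4 CPM with a median of 2.87 CPM in tumors and stood at 0.367, 0.174 and 0.153 CPM in normals. The 11 tumors other than greater curvature 2 lay above all normals and that library below them, and the log2 fold change was 3.83 (SE 1.12, adjusted p = 0.0241). Kcnj3 ranged from 1.22 to 55.0 CPM with a median of 23.0 CPM in tumors and stood at 5.66, 0.349 and 2.14 CPM in normals. Greater curvature 2 and corpus 1 lay within the normals and the other 10 tumors above them, and the log2 fold change was 3.14 (SE 1.07, adjusted p = 0.0427). Kcnj9 ranged only from 0.216 to 0.771 CPM in tumors and stood at 0.0735, 0.0872 and 0.229 CPM in normals, with a log2 fold change of 1.57 (SE 0.52, adjusted p = 0.0378). Kcnj14, a strong inward rectifier gene, had 1.41, 0.757 and 0.330 CPM in antrum tumors, 1.46, 0.408 and 1.78 CPM in greater curvature tumors, 2.65, 0.895 and 2.48 CPM in lesser curvature tumors, 0.712, 1.68 and 1.57 CPM in corpus tumors, and 0.294, 0 and 0.0765 CPM in normals. All 12 tumors lay above all 3 normals, by the narrowest margin in antrum 3, and the log2 fold change was 3.26 (SE 0.86, adjusted p = 0.0156).

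Leaving out libraries moved these calls as well. Kcnj14 lost its call without normal 2 (adjusted p = 0.0542) or normal 3 (adjusted p = 0.0712), and Kcnj6 without any of the normals (adjusted p = 0.0612 to 0.0942). Kcnj9 lost it without antrum 3, greater curvature 1, greater curvature 3, lesser curvature 3, corpus 2, normal 1 or normal 2 (adjusted p = 0.0531 to 0.138). Kcnj3 kept it without antrum 2, greater curvature 2, lesser curvature 2 or corpus 1 and lost it without each of the other 11 (adjusted p = 0.0515 to 0.137).

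Among the inward rectifiers that fell, Kcnj8 and Kcnj11 encode the pores of the ATP-sensitive potassium channel, Kcnj8 in vascular and visceral muscle and Kcnj11 in endocrine cells and striated muscle. Kcnj8 ranged from 3.87 to 13.9 CPM with a median of 8.15 CPM in tumors and stood at 25.5, 12.9 and 26.7 CPM in normals, with 11 of 12 tumors below all normals. Its log2 fold change was -1.40 (SE 0.33, adjusted p = 0.0104). Kcnj11 ranged from 0.344 to 5.13 CPM in tumors and stood at 5.36, 1.83 and 10.7 CPM in normals, so that the groups overlapped, with 6 of 12 tumors below all normals and a log2 fold change of -1.66 (SE 0.46, adjusted p = 0.0183). Kcnj13, expressed in transporting epithelia, ranged from 0 to 3.40 CPM with a median of 0.430 CPM in tumors and stood at 16.7, 2.62 and 4.59 CPM in normals. It had a log2 fold change of -3.96 with an SE of 0.72 (adjusted p = 0.00379), was called under every setting tried, and shares exonic bases with Gigyf2 on the opposite strand. Kcnj12 stood at 0.0735, 0.960 and 12 CPM in normals and 0.0478 to 1.12 CPM in tumors, so its log2 fold change of -4.14 (adjusted p = 0.00778) rested on normal 3, without which it was -1.06 (adjusted p = 0.458). Without normal 3, Kcnj8 (adjusted p = 0.0613) and Kcnj11 (adjusted p = 0.208) also lost their calls.

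Kcnj15 and Kcnj16, which encode subunits of epithelial inward rectifiers, were the most abundant of the class. Kcnj15 ranged from 1.87 to 453 CPM with a median of 75.8 CPM in tumors and stood at 435, 312 and 351 CPM in normals. Kcnj16 ranged from 0.442 to 203 CPM with a median of 21.5 CPM in tumors and stood at 201, 176 and 159 CPM in normals. For both, 11 of 12 tumors lay below all normals and corpus 1 lay above them. Over all 12 tumors the log2 fold change was -1.94 for Kcnj15 (SE 0.89, adjusted p = 0.107) and -2.68 for Kcnj16 (SE 0.97, adjusted p = 0.0514), and neither was called. Without greater curvature 2 and corpus 1, a choice that favors calls, both were called. The log2 fold change was then -2.69 (adjusted p = 0.0206) for Kcnj15 and -3.59 (adjusted p = 0.00924) for Kcnj16. The summed level of 8 markers of parietal cells, the acid-secreting cells of the glands, ran from 136.1 to 9216 CPM in tumors with the highest value in corpus 1, and from 6890 to 11040 CPM in normals, and 7 of the 8 fell. Its part in the result was not tested. TPM corrects for transcript length and was taken from the authors' table, on which the median gene lay 0.43 higher in tumors on the log2(TPM + 1) scale. Summed over its 13 genes, the class had 73.4 TPM ± 44.6 (SD, n = 12) in tumors and 148.5 TPM ± 23.9 (SD, n = 3) in normals.

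The voltage-gated potassium (Kv) pore and modifier genes numbered 20, of which 1 rose and 4 fell, against 16.2% and 15.7% of all genes tested. Kcnf1 (chromosome 12, 17172100 to 17176888) encodes a silent modifier subunit that forms channels only with Kv pore subunits. It had 2.40, 2.45 and 2.75 CPM in antrum tumors, 1.88, 6.17 and 2.41 CPM in greater curvature tumors, 0.983, 2.91 and 1.39 CPM in lesser curvature tumors, 7.91, 4.15 and 3.30 CPM in corpus tumors, and 12.9, 15.2 and 26.4 CPM in normals. All tumors lay below all normals, with corpus 1 and greater curvature 2 highest among the tumors. Kcnf1 fell, with a log2 fold change of -2.61 (SE 0.37, adjusted p = 0.00154). Kcns3, also a modifier subunit gene, ranged from 0.123 to 4.2 CPM in tumors and stood at 3.31, 4.80 and 10.3 CPM in normals, with a log2 fold change of -2.17 (SE 0.65, adjusted p = 0.0262). Kcnd3, a transient A-type channel gene active in muscle and neurons, ranged from 1.22 to 8.18 CPM in tumors and stood at 10.9, 9.25 and 20.5 CPM in normals, with a log2 fold change of -1.84 (SE 0.43, adjusted p = 0.00979). Without normal 3 Kcnd3 (adjusted p = 0.0776) and Kcns3 (adjusted p = 0.173) lost their calls, as did Kcns3 without normal 2 (adjusted p = 0.0574). Kcnd1, another A-type channel gene, had 1.03 to 2.39 CPM in tumors and 1.18, 0.872 and 1.07 CPM in normals, with a log2 fold change of 0.80 (SE 0.26, adjusted p = 0.0341). Its call was lost without greater curvature 3, lesser curvature 3, corpus 2, corpus 3 or any of the normals (adjusted p = 0.0502 to 0.129).

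Kcnc2, a fast-spiking channel gene, was low in all libraries. It had 0.799, 1.17 and 1.76 CPM in antrum tumors, 0, 0.102 and 0.0524 CPM in greater curvature tumors, 0.344, 0.112 and 0.239 CPM in lesser curvature tumors, 0.474, 0.337 and 0.324 CPM in corpus tumors, and 1.25, 2.35 and 1.91 CPM in normals. Antrum 3 lay within the normals and the other 11 tumors below them, with the lowest values at the greater curvature. Over all tumors the log2 fold change of Kcnc2 was -2.65 (SE 0.40, adjusted p = 0.002). In greater curvature tumors 3 counts stood against 69 in normals, so that the normals were 32.0 times higher after scaling (95% counting interval 10.5 to 159). The F test among the 4 sites gave Kcnc2 an unadjusted p of 0.000173 and an adjusted p of 0.467 in edgeR, whereas the likelihood ratio test of DESeq2 gave an adjusted p of 2.77e-05.

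Of the 11 calcium- and sodium-activated potassium channel genes, 3 fell and none rose, against 15.7% and 16.2% of all genes tested. Kcnmb1 (chromosome 11, 33963013 to 33973641) encodes the beta subunit that raises the calcium sensitivity of the large-conductance (BK) channel of smooth muscle. It had 2.03, 3.44 and 1.87 CPM in antrum tumors, 2.44, 4.38 and 1.57 CPM in greater curvature tumors, 3.78, 1.90 and 2.39 CPM in lesser curvature tumors, 2.61, 3.81 and 3.57 CPM in corpus tumors, and 7.79, 18.6 and 10.9 CPM in normals. The tumors were close together and all 12 lay below all normals. The log2 fold change of Kcnmb1 was -2.15 (SE 0.32, adjusted p = 0.00198) and was called under every setting tried. Kcnma1, the BK pore gene itself, ranged from 1.34 to 42.0 CPM with a median of 10.3 CPM in tumors and stood at 15.5, 20.1 and 16.7 CPM in normals, with a log2 fold change of -0.39 (SE 0.65, adjusted p = 0.653). The difference between the 2 genes was not tested. Kcnn3, a small-conductance calcium-activated channel gene, ranged from 0.984 to 10.2 CPM in tumors and stood at 8.08, 13.1 and 16.5 CPM in normals. Kcnn3 fell, with a log2 fold change of -2.22 (SE 0.47, adjusted p = 0.00646), with 11 of 12 tumors below all normals and greater curvature 3 within their range. Kcnt2, a sodium-activated channel gene, fell by 1.48 (SE 0.37, adjusted p = 0.0129), with all 12 tumors below all normals, and lost its call without normal 3 (adjusted p = 0.0958). Kcnn4, the intermediate-conductance channel of epithelia and blood cells, spread from 0.540 CPM (lesser curvature 1) to 62.4 CPM (antrum 3) in tumors and stood at 32.2, 62.9 and 59.9 CPM in normals, and was not called (adjusted p = 0.473).

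Smooth muscle markers moved with Kcnmb1: all 11 of 11 fell, and their summed level was 197.8 to 1221 CPM in tumors and 4813 to 6716 CPM in normals, with none of the markers at 0. The 5 markers of interstitial cells of Cajal, where none was called, summed to 198.3 to 350.6 CPM in tumors and 196.4 to 471.7 CPM in normals. Over the 12 tumors the rank correlation with the smooth muscle sum was 0.58 for Kcnmb1, 0.41 for Kcnt2, 0.37 for Kcnd3, 0.36 for Scn7a and 0.21 for Kcnj8. It was -0.57 for Kcnk7, -0.48 for Kcnn3, -0.45 for Scn2b, -0.24 for Kcns3, -0.22 for Kcnf1 and -0.17 to 0.17 for the other genes that fell. With the sum of enteric neuron and glia markers it was -0.49 for Kcnmb1, 0.13 for Kcnt2, 0.22 for Kcnd3, -0.35 for Scn7a and 0.74 for Kcnj8. With the sum of neuroendocrine markers it was -0.18, 0.03, 0.56, -0.32 and 0.33 for the same genes. Those genes had the highest correlations with the muscle sum. For the other genes that fell, the correlation with the enteric sum ran from -0.93 (Cacnb3) to 0.32 (Scn2b). With the neuroendocrine sum it ran from -0.80 (Kcns3) to 0.08 (Kcnj12). All these values share a library and its depth. The part of muscle content in these falls was not tested.

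Of the 10 tandem-pore (K2P) genes, which carry the leak current at rest, only Kcnk7 was called. Of all genes tested, 16.2% rose and 15.7% fell. Kcnk7 encodes a subunit not known to conduct alone, had 0 to 0.699 CPM in tumors and 0.294, 2.97 and 0.382 CPM in normals, and its adjusted p of 0.0431 rested on normal 2, without which it was 0.664. Its call was also lost without antrum 3, greater curvature 1 or 3, lesser curvature 1 or 3, any corpus tumor or normal 3. Kcnk1, a weakly conducting K2P gene of epithelia, had the highest mean TPM of the 107 genes over all 15 libraries, with 49.6 ± 12.8 (SD, n = 12) in tumors and 45.3 ± 10.5 (SD, n = 3) in normals, where Kcnj15 (76.9 TPM) and Kcnj16 (48.7 TPM) were higher. By counts Kcnk1 had 43.6 to 100.5 CPM in tumors and 109, 69.4 and 92.2 CPM in normals, with a log2 fold change of -0.42 (SE 0.21, adjusted p = 0.126). Kcnk6 had 2.34 to 77.4 CPM in tumors and 81.6, 107 and 71.0 CPM in normals (adjusted p = 0.0945), and Kcnk5, an acid-sensing K2P gene, had 4.72 to 29.6 CPM in tumors and 11.2, 26.0 and 50.9 CPM in normals (adjusted p = 0.0714). Without greater curvature 2 and corpus 1, a choice that favors calls, Kcnk5 (adjusted p = 0.0155) and Kcnk6 (adjusted p = 0.0333) were called lower.

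Among the 10 auxiliary potassium channel genes, Kcnab2, the beta subunit of Kv channels in axons, came nearest to a call, with 1.26 to 17 CPM in tumors, 1.69, 1.83 and 2.14 CPM in normals and a log2 fold change of 1.58 (SE 0.57, adjusted p = 0.0522). Kcnab2 shares exonic bases with Gm16334 on the same strand. Kcne1 ranged from 0.0491 to 27.4 CPM in tumors and stood at 27.3, 5.15 and 5.58 CPM in normals (adjusted p = 0.0928). Kcne3, which keeps KCNQ channels open in epithelia, ranged from 1.52 to 55.7 CPM in tumors and from 1.98 to 52.8 CPM in normals (adjusted p = 0.469), so that the normals spread as widely as the tumors. Kcne4 had 0.474 to 3.69 CPM in tumors and 3.53, 3.66 and 5.58 CPM in normals (adjusted p = 0.0895).

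**Figure D4:**
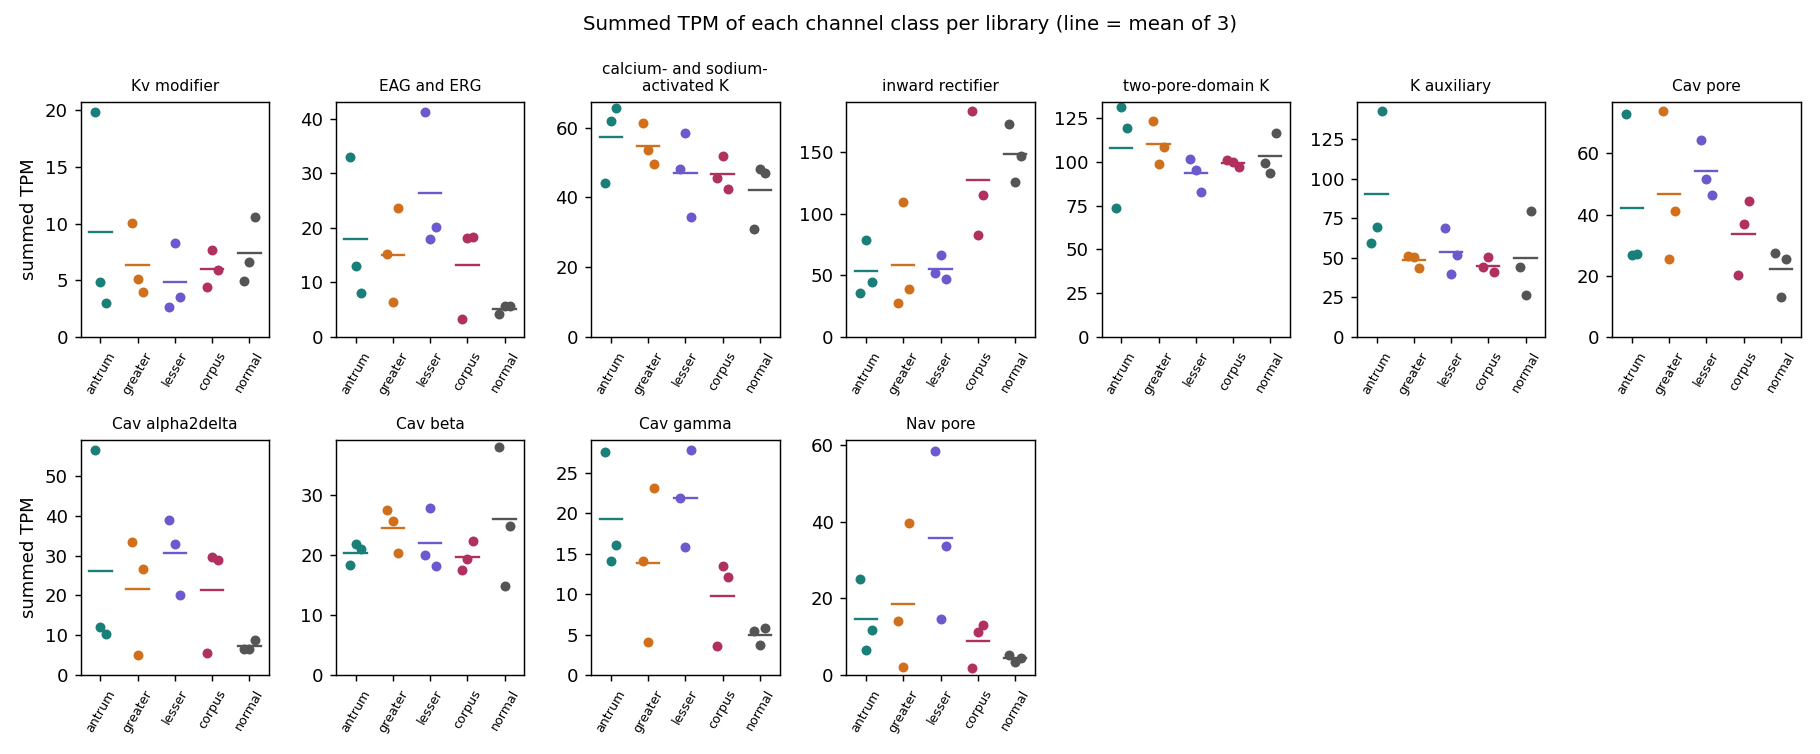
Summed TPM of the members of each of 11 channel classes (y axis, each panel with its own scale from 0), in each library by tumor site and normal tissue (x axis), with a line at the mean of 3. The inward rectifier panel shows its highest tumor value, 182.9 TPM, in a corpus sample.

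Voltage-gated calcium channels, which admit the calcium that triggers contraction and secretion, gave 2 calls among 20 genes. Of all genes tested, 16.2% rose and 15.7% fell. None of the 8 pore genes was called. Cacna1c, the L-type channel of smooth muscle and heart, had 7.67 to 56.9 CPM in tumors and 26.4, 25.8 and 27.4 CPM in normals, with a log2 fold change of 0.18 (SE 0.39, adjusted p = 0.734). Cacna1a, the P/Q-type channel of nerve terminals, ranged from 5.23 to 73.9 CPM in tumors and stood at 9.40, 3.84 and 10.5 CPM in normals (log2 fold change 1.31, SE 0.79, adjusted p = 0.208). On the TPM table, with limma, Cacna1a did pass the threshold under both pseudocounts (lowest adjusted p 0.0216). Of the T-type, low-threshold genes, Cacna1h had 8.71 to 62.1 CPM in tumors and 27.4, 18.1 and 33.3 CPM in normals (adjusted p = 0.863), and Cacna1i had 0.051 to 20.9 CPM in tumors and 1.32, 0.174 and 0.153 CPM in normals (adjusted p = 0.144). Cacna1e, the R-type channel gene, had 1.03 to 6.39 CPM in tumors and 3.82, 4.80 and 8.49 CPM in normals (adjusted p = 0.0781).

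Cacnb3, a beta subunit that carries the pore to the membrane, ranged from 6.68 to 34.3 CPM in tumors and stood at 77.4, 24.7 and 38.7 CPM in normals. Cacnb3 fell, with a log2 fold change of -1.29 (SE 0.36, adjusted p = 0.0205), with 9 of 12 tumors below all normals, and without normal 1 it was not called (adjusted p = 0.188). The other beta genes Cacnb1 (log2 fold change -0.25, adjusted p = 0.432) and Cacnb2 (0.33, adjusted p = 0.606) were not called. Cacng4, a gamma subunit gene whose product also accompanies glutamate receptors, ranged from 1.07 to 26.6 CPM with a median of 13.4 CPM in tumors and stood at 2.5, 1.66 and 2.83 CPM in normals. Its log2 fold change was 2.41 (SE 0.80, adjusted p = 0.0381), with greater curvature 2 and corpus 1 alone among the 12 tumors not above all normals. It kept its call without any antrum tumor, greater curvature 2, lesser curvature 2 or corpus 1 and lost it without each of the other 9 (adjusted p = 0.0532 to 0.132). Its relatives Cacng5 (2.76, adjusted p = 0.0703) and Cacng7 (0.62, adjusted p = 0.287) were not called. The alpha2delta genes Cacna2d1 and Cacna2d2, whose products bind gabapentin, spread widely. Cacna2d1 had 12.6 to 112 CPM in tumors and 20.9, 24.3 and 35.9 CPM in normals (adjusted p = 0.265). Cacna2d2 had 105, 8.57 and 3.85 CPM in antrum tumors, 61.1, 3.46 and 5.66 CPM in greater curvature tumors, 0.737, 29.1 and 0.525 CPM in lesser curvature tumors, 10.6, 66.1 and 59.2 CPM in corpus tumors, and 10.1, 5.58 and 5.89 CPM in normals (adjusted p = 0.318). High and low Cacna2d2 tumors stood side by side at each site.

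The sodium channel genes gave 1 rise and 4 falls among 12, against 16.2% and 15.7% of all genes tested. Scn7a (chromosome 2, 66673425 to 66784914) encodes an atypical channel that senses sodium and is found in glia and muscle. It had 3.26, 4.95 and 2.97 CPM in antrum tumors, 4.18, 5.09 and 2.41 CPM in greater curvature tumors, 4.28, 2.69 and 5.83 CPM in lesser curvature tumors, 4.90, 5.44 and 4.16 CPM in corpus tumors, and 20.7, 17.2 and 23.4 CPM in normals. Both groups were tight and did not overlap. The log2 fold change of Scn7a was -2.29 (SE 0.25, adjusted p = 0.00053), with the smallest p of the 107 genes, and was called under every setting tried. Scn8a, a main sodium channel of neurons, ranged from 1.12 to 78.9 CPM with a median of 23.7 CPM in tumors and stood at 6.76, 0.960 and 2.29 CPM in normals. Greater curvature 2 and corpus 1 lay within the normals and the other 10 tumors above them, and the log2 fold change was 3.18 (SE 1.11, adjusted p = 0.0461). That call was kept without antrum 2, greater curvature 2, lesser curvature 2 or corpus 1 and lost without each of the other 11 (adjusted p = 0.0567 to 0.152). Scn3a (1.32 to 53.0 CPM in tumors, and 3.45, 1.83 and 3.36 CPM in normals) and Scn9a (0.0791 to 16.0 CPM in tumors, and 0.661, 1.22 and 0.994 CPM in normals) were not called (adjusted p = 0.101 and 0.259).

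The sodium channel beta subunits are single-pass membrane proteins that tune the pore and act in cell adhesion, and Scn4b and Scn2b fell. Scn4b had 0, 0.291 and 0 CPM in antrum tumors, 0.209, 0.866 and 0 CPM in greater curvature tumors, 0.0983, 0.448 and 0.239 CPM in lesser curvature tumors, 1.98, 0.393 and 1.35 CPM in corpus tumors, and 6.61, 4.36 and 2.60 CPM in normals. All tumors lay below all normals, with corpus 1 and corpus 3 highest, and the log2 fold change was -3.77 (SE 0.78, adjusted p = 0.00614). Scn2b ranged from 0 to 1.12 CPM in tumors and stood at 1.25, 1.92 and 0.994 CPM in normals (log2 fold change -2.87, SE 0.71, adjusted p = 0.0122), and lost its call without normal 2 (adjusted p = 0.0578). Scn3b went the other way without a call, with 0.306 to 22.9 CPM in tumors, 1.76, 1.05 and 1.76 CPM in normals and a log2 fold change of 2.21 (SE 0.90, adjusted p = 0.0764).

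The genes that rose shared an order over the tumors. Corpus 1 was among the 2 lowest tumors for 11 of the 12 genes that rose and greater curvature 2 for 10, while lesser curvature 1 was among the 2 highest for 8 and antrum 1 for 6. Over the 12 tumors the rank correlations between pairs of these 12 genes had a median of 0.73 (66 pairs, -0.11 to 0.99). Those between pairs of the 17 genes that fell had a median of 0.10 (136 pairs, -0.73 to 0.85). These describe libraries that share depth and makeup. On the first principal component of all genes, corpus 1 (86.32) and greater curvature 2 (84.87) lay at one end of the tumors. Lesser curvature 1 (-150.8) and antrum 1 (-140.4) lay at the other. Such correlations were not computed for other genes that rose, so the shared order does not set channel genes apart. Kcnj9 and Kcnd1 followed the shared order least.

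**Figure D5:**
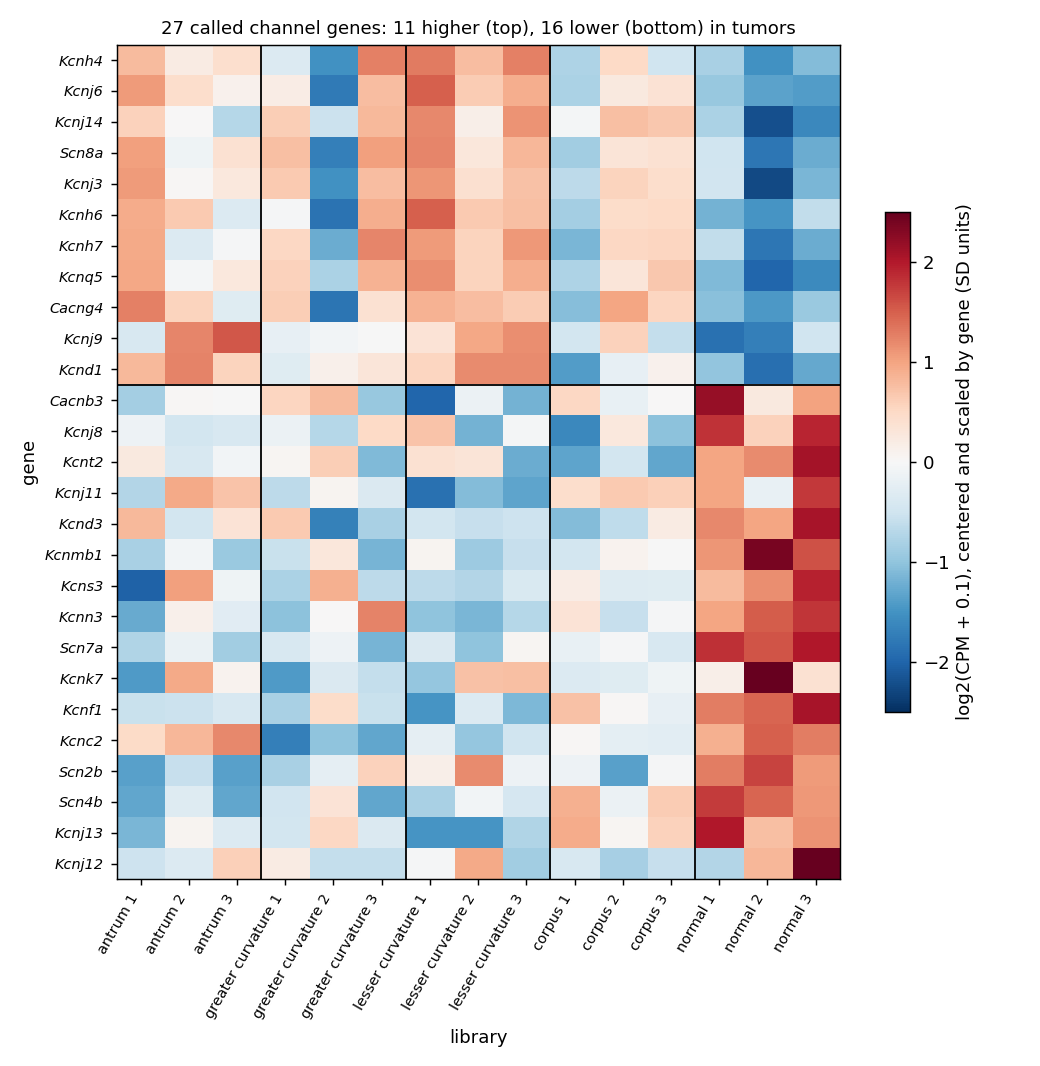
Level of 27 of the called channel genes (rows, 11 that rose above 16 that fell) in the 15 libraries (columns, tumors by site and then normals), as log2(CPM + 0.1) centered and scaled by gene in SD units. Greater curvature 2 and corpus 1 are blue with the normals over most genes that rose, while the genes that fell order the tumors less alike, with a median rank correlation of 0.10 between pairs of all 17.

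Markers of other cell types followed some of the genes that rose over the tumors. The 11 markers of enteric neurons and glia summed to 15.9 to 503.2 CPM in tumors (median 164.6 CPM), lowest in greater curvature 2 and highest in lesser curvature 1, and to 39.69 to 64.87 CPM in normals, with 1 called higher, 3 called lower, none at 0 and a median log2 fold change of -0.97. The median sum of the tumors thus lay above all normals although more of the markers were called lower than higher. A sum is weighted to its abundant markers, so this sum does not stand for the list as a whole or measure enteric cells. Over the 12 tumors the rank correlation with that sum was 0.97 for Kcnh4, 0.92 for Kcnh7, 0.87 for Kcnj3 and 0.85 for Kcnh6, Kcnq5 and Scn8a, and it was lowest for Kcnj9 (0.28) and Kcnd1 (0.38). The 12 neuroendocrine markers summed to 243.5 to 5628 CPM in tumors (median 1716 CPM) and 295.6 to 1251 CPM in normals, with 1 called higher. The rank correlation with the neuroendocrine sum was 0.58 for Kcnq5, 0.64 for Kcnj3 and 0.69 for Cacng4, but 0.29 for Kcnh4, -0.15 for Kcnd1 and -0.29 for Kcnj9. The part of either marker group in the results was not tested. Among the other lists, 1 of 4 tested chief cell markers rose and 2 fell, 2 of 7 pit and neck mucous markers fell, 5 of 10 squamous markers fell, 2 of 6 endothelial markers fell, 2 of 7 fibroblast markers rose, 1 of 7 leukocyte markers rose, 1 of 6 tuft cell markers rose and 1 fell, and none of 6 epithelial markers was called. Normal 2 held 5138 CPM of the squamous markers of the forestomach, against 13.67 and 33.03 CPM in the other normals. The tumors held 3.811 to 1950 CPM of them, with a median of 192 CPM that lay above those other normals.

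Single sites were then set against the same 3 normals, to ask where along the stomach the channel genes differed, so that the 4 comparisons share their controls. In lesser curvature tumors 15 of the 107 genes rose and 13 fell, against 18.2% of all genes that rose and 15.3% that fell. In antrum tumors 6 rose and 7 fell, against 9.59% and 5.08% of all genes. In greater curvature tumors 1 rose and 4 fell, against 6.5% and 2.76%. In corpus tumors none rose and 2 fell, against 2.35% and 1.19% of all genes. There 8 and 17 channel genes had an unadjusted p under 0.05 in edgeR, against 14.2% and 9.82% of all genes, and 5 and 12 were called by DESeq2, against 8.14% and 5.7%. Without greater curvature 2 and corpus 1, 17 genes rose and 12 fell at the greater curvature, against 16.8% and 9.91% of all genes in the same fit. In the corpus 7 rose and 4 fell, against 9.48% and 2.42%. Each site rests on 3 tumors, or 2 without the library left out, and its spread is estimated together with that of the other groups.

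Scn7a fell at all 4 sites: by 2.45 in antrum tumors (adjusted p = 0.0106), by 2.39 in greater curvature tumors (adjusted p = 0.0122), by 2.25 in lesser curvature tumors (adjusted p = 0.00364) and by 2.08 in corpus tumors (adjusted p = 0.0254) on the log2 scale. Kcnmb1 also fell at each site, with log2 fold changes of -2.34 in antrum, -2.15 in greater curvature, -2.20 in lesser curvature and -1.90 in corpus tumors, the last at an adjusted p of 0.0487, which held in 5 of 24 other settings. Kcnq5 rose in antrum (2.75, adjusted p = 0.0241), greater curvature (2.67, adjusted p = 0.0325) and lesser curvature tumors (3.32, adjusted p = 0.0067). Kcnf1 fell in antrum (-2.84, adjusted p = 0.0144), greater curvature (-2.38, adjusted p = 0.0276) and lesser curvature tumors (-3.39, adjusted p = 0.00427). In antrum tumors Kcnj9 (2.02, adjusted p = 0.0424) and Kcnab2 (2.26, adjusted p = 0.0448) were next among the rises. In lesser curvature tumors Kcnj6 (5.01, SE 1.26, adjusted p = 0.0141) and Kcnj14 (3.91, SE 0.95, adjusted p = 0.0127) followed Kcnq5, and Kcnc2 fell there (-2.88, adjusted p = 0.00717) and in greater curvature tumors (-4.88, adjusted p = 0.0119). Kcnj6, Kcnj9 and Kcnj14 had 10 or more counts in no normal and met the minimum through tumors alone, which favors such rises.

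The 4 sites were compared with each other by an F test. No channel gene was called by edgeR, against 0% of all genes tested, while 9 had an unadjusted p under 0.05, against 5.84% of all genes. DESeq2 called 4, Kcnc2, Cacng2, Kcnj11 and Kcnj4, against 2.15% of all genes. Cacng2, another gamma subunit gene, had 2.15, 2.97 and 8.48 CPM in antrum tumors, 0.408 to 1.19 CPM in greater curvature tumors, 0.478 to 0.671 CPM in lesser curvature tumors and 0.673 to 1.08 CPM in corpus tumors (DESeq2 adjusted p = 4.16e-05, edgeR adjusted p = 0.746). Kcnj11 averaged 3.47 CPM ± 2.10 in antrum, 1.70 ± 0.590 in greater curvature, 0.583 ± 0.222 in lesser curvature and 3.67 ± 0.384 in corpus tumors (SD, n = 3 each, DESeq2 adjusted p = 0.0042, edgeR adjusted p = 0.781). Site calls also moved with single libraries. In the corpus Scn7a was not called without corpus 2, corpus 3, normal 1 or normal 3 (adjusted p up to 0.139), and Kcnmb1 was called only without greater curvature 2 or greater curvature 3 (up to 0.18 otherwise). In antrum Kcnq5 was lost without antrum 1, antrum 3 or any normal (up to 0.0865), Kcnf1 without antrum 1 or normal 3 (up to 0.0553), Kcnmb1 without antrum 1 or antrum 3 (up to 0.0615), Kcnj9 without each library except greater curvature 2 (up to 0.12), and Kcnab2 without each except antrum 2, greater curvature 2 or 3, lesser curvature 2 or corpus 1 (up to 0.159). At the greater curvature Kcnq5 was lost without greater curvature 1 or 3, lesser curvature 3 or any normal (up to 0.135), Kcnmb1 without greater curvature 1 or 3 or normal 2 or 3 (up to 0.108), and Kcnc2 (up to 0.0513) and Scn7a (up to 0.0576) without greater curvature 3 or normal 3. At the lesser curvature Kcnj6 was lost without normal 3 (0.0535), and Kcnq5, Kcnj14, Scn7a, Kcnf1 and Kcnc2 kept their calls without any single library.

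Genes of channel complexes outside the 107 gave 4 rises and 4 falls among 38 tested of 40 listed, against 16.2% and 15.7% of all genes tested. Their median log2 fold change was 0.20. Unc79 (2.55, SE 0.74, adjusted p = 0.0223) and Unc80 (2.33, SE 0.76, adjusted p = 0.0358), which encode subunits of the sodium leak channel complex, rose, while its pore gene Nalcn was not called (1.04, adjusted p = 0.214). Rem2, an inhibitor of calcium channels (2.48, adjusted p = 0.0228), and Hcn3, a pacemaker channel gene (2.87, adjusted p = 0.0333), rose as well. Abcc9, the sulfonylurea receptor that pairs with Kcnj8 in muscle, fell by 1.15 (SE 0.26, adjusted p = 0.00825), with all 12 tumors below all normals, and Abcc8, the receptor of endocrine cells, was not called (-0.71, adjusted p = 0.164). Kcne2, the parietal cell subunit left out of the 107, fell by 3.35 (SE 0.77, adjusted p = 0.00913), while for its pore gene Kcnq1 the log2 fold change was -1.80 (SE 0.68, adjusted p = 0.0601). Tmem38b (-0.85, adjusted p = 0.0193) and Ank3 (-0.81, adjusted p = 0.0214) fell.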

How the data were processed

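Sample groups follow the labels. The tools bcl2fastq 2.19, kallisto 0.44.0, sleuth and DESeq2 and the build GRCm38.p6 stand in the submitters' processing notes without role or order. Estimated counts by gene, already whole numbers as the authors deposited them, were the input to the tests. In the other deposited table, whose name says FPKM, columns sum to 1e+06, so its values were read as TPM made by the authors, a unit the design had not named. Strand use in counting, annotation and earlier filters: not given in the sources used here. Of the 107 genes, 35 share exonic bases with another gene in GENCODE M21 (GRCm38), and reads of overlapping genes may be assigned to either.

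The channel genes, lists and tests were chosen with earlier results of these data known, and the classes follow gene symbols. The count model was edgeR 4.0.16 (R 4.3.3): filterByExpr with a minimum count of 10, TMM scaling, and 1 quasi-likelihood model with robust dispersions for 15 samples in 5 groups. Contrasts were the mean of 4 sites minus normal, each site minus normal, and an F test among sites. P-values were adjusted by Benjamini-Hochberg over 16224 genes, SE belongs to the log2 fold change, and intervals and floors (3 counts over a group) cover counting error only. Named genes were those called with all 12 tumors beyond all 3 normals, up to 3 per class and site by p, the 10 with the highest mean TPM and a set of known muscle, neuron and gland channels; Kcnj3, Kcnh5, Kcnq3, Scn3b, Cacng2, Kcnj4, Nalcn and Abcc8 were added after their values were seen, as were genes named only in lists. Other settings were DESeq2 1.42.0 and its size factors, no filter or the count minimum of the gene list, a replicate block, the compared groups alone, limma 3.58.1 on log2(TPM + 1) and log2(TPM + 0.1) for genes at 1 TPM in 3 samples, each library left out, and greater curvature 2 and corpus 1 left out. Scripts were tested on simulated data. Promoters came from RefSeq. Counts cover all 107 genes, of which 5 are not reported here by name or shown in the figures of single genes.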

Additional observations from a re-analysis of the deposited data

How the results depend on the processing

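No result changed direction while called. Counts of channel genes are given as higher and lower, with the percent of all genes called in the same fit in brackets. All tumors gave 12 and 17 with DESeq2 size factors (16.3%, 15.9%) and 6 and 15 with no filter on low counts (9.56%, 9.31%). They gave 12 and 17 with the count minimum of the gene list (16.2%, 15.7%) and 19 and 20 with DESeq2 (22.2%, 19.2%). Limma on log2(TPM + 1), where 78 channel genes were tested, gave 10 and 6 (37.3%, 3.58%). Limma on log2(TPM + 0.1), where the median gene lay 0.52 higher in tumors, gave 14 and 6 (38.5%, 3.18%). Leaving out greater curvature 2 and corpus 1 gave 19 rises in all tumors (21.7%) and 17 in antrum (14.6%). It gave 17 rises and 12 falls at the greater curvature (16.8%, 9.91%), and 7 and 4 in the corpus (9.48%, 2.42%). DESeq2 gave 20 and 13 in antrum (16.5%, 11.3%) and 11 and 12 at the greater curvature (15.2%, 8.69%). It gave 23 falls at the lesser curvature (22.2%), 5 and 12 in the corpus (8.14%, 5.7%), and 4 genes among sites (2.15%). With no filter 1 gene rose in antrum (4.91%). With only the compared groups in the fit, 4 fell in antrum (1.34%) and 0 rose and 0 fell at the greater curvature (0.0267%, 0%). With limma on log2(TPM + 1), 7 fell at the lesser curvature (4.47%). On log2(TPM + 0.1), 4 fell in antrum (1.81%), 2 rose at the greater curvature (21.3%) and 8 fell at the lesser curvature (4.09%). In the corpus 1 fell with DESeq2 size factors, no filter, the replicate block, the compared groups alone and both limma settings (0.484% to 1.16%). Leaving out 1 library gave ranges of 1 to 18 rises and 9 to 26 falls in all tumors, 0 to 15 and 1 to 9 in antrum, 0 to 16 and 0 to 14 at the greater curvature, 3 to 19 and 7 to 17 at the lesser curvature, 0 to 3 and 0 to 6 in the corpus, and 0 among sites. Rises in all tumors also numbered 3 without normal 1, 2 without normal 3, 4 without lesser curvature 3 or corpus 2, 5 without greater curvature 1, greater curvature 3 or corpus 3 and 6 without lesser curvature 1. Shares of all genes are not given for fits without 1 library, so these counts do not set channel genes apart from other genes. Kcnq5, Kcnf1, Scn7a, Kcnmb1, Kcnj13 and Kcnn3 were called in all tumors under all 23 other settings, and Scn4b and Kcnc2 under all 21 that tested them. Of the values for single genes, 1502 kept their side of the threshold, 219 lost a call and 45 gained one. The replicate block gave 11 rises and 21 falls in all tumors (17.9%, 17.6%) and 7 falls at the greater curvature (3.15%). With the block Kcnh4 (adjusted p = 0.061) and Cacng4 (0.0511) were not called, and Kcnab2 (0.0348), Kcnk6 (0.0464), Kcnj15 (0.0431) and Kcnj16 (0.0151) were. Same-numbered libraries of different groups did not deviate together throughout: 17 of 30 pairs correlated above 0.1 (-0.566 to 0.693, median 0.168, against -0.065 for other pairs). Still, their median was the higher one, and 10 of 15 libraries correlated best with their own number. These values do not settle whether the numbers pair the samples, and the labels do not say. The main tests treat the samples as unpaired and would ignore a pairing if there is one, so the block is given beside them. Depth limits the scarce genes: 1 count was up to 0.112 CPM, and the floor over the normals was 0.0786 CPM.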
